A study of Mus musculus with 14 samples.

Results

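Slc4a1, Slc4a2 and Car1 encode proteins of chloride, bicarbonate and carbon dioxide handling, and their transcripts were followed in the spleens of AcB61 and AcB55 mice, each set against A/J spleen. The 3 genes were taken as the probes whose single symbol in the array's annotation is Slc4a1, Slc4a2 or Car1. Each had 1 probe, so 3 of the 15247 features listed on the array are described, or 3 of 6288 single-symbol genes with a value. Slc4a1 (gene ID 20533) lies on chromosome 11, Slc4a2 (gene ID 20535) on chromosome 5 and Car1 (gene ID 12346) on chromosome 3. AcB61 (8 arrays) and AcB55 (6 arrays) are recombinant congenic mouse strains, which carry segments of the C57BL/6 genome on an A/J background. As published background, both carry a defective allele of Pklr, the pyruvate kinase of red cells. Spleen RNA of a strain was hybridised on each array together with A/J spleen RNA in the other channel, so A/J is present on every array and has no array of its own. Replicate numbers follow the order of the deposited arrays within a strain and are not taken from the labels. The labels give no treatment, infection, time, age or sex for any group, and do not say whether arrays of a strain came from separate mice, so p-values measure only the spread between these arrays, which may be technical.

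Slc4a1 is band 3, or anion exchanger 1, the most abundant protein of the red cell membrane. It exchanges chloride for bicarbonate, and its cytosolic end ties the membrane to the spectrin skeleton through ankyrin and holds haemoglobin and glycolytic enzymes. Slc4a2, anion exchanger 2, performs the same exchange in many cell types, where it takes part in regulating cell pH and volume. Car1 is a cytosolic carbonic anhydrase, abundant in red cells, which interconverts carbon dioxide and bicarbonate and so supplies the substrate of the exchanger. In mice the spleen keeps a site of red cell formation in its red pulp throughout life, and this site expands in anaemia.

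The values are log2 ratios of the strain over A/J, where 1 stands for a doubling and 0 for equal signal. The table contained 14197 to 14588 values per array, and the array medians lay between -0.0205 and 0.0087. Every label names the strain as the first channel and A/J as the second, and a positive ratio was taken to mean more RNA in the strain. This direction is likely and not settled, because the labels do not tell which dye each channel carried. Ratios hold no level, so the labelled tissue could not be checked against its defining markers, and signal strength and depth are unknown. In whole spleen, more cells of a type and more RNA per cell cannot be told apart. A feature was called when limma's adjusted p, by Benjamini-Hochberg over all 13045 features tested, was below 0.05. Of those features 23.8% were called in either direction in AcB61 and 20.7% in AcB55. In 1 direction, 10.5% were called higher in AcB61 than in A/J, 9.77% were called higher in AcB55 than in A/J, and 3.9% were called higher in both. Called lower than A/J were 13.3% in AcB61 and 10.9% in AcB55.

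Promoter windows of Slc4a1 and Car1 were not in the sources used here, so the members could not be compared by motif. The promoter sequence of Slc4a2 is shown. RefSeq (GRCm38.p6) gives it a pair of start sites on the plus strand, and each window runs from 250 bases before to 50 bases after the start, at chr5:24424982-24425281 and chr5:24425594-24425893. Capitals mark matches to CCNCNCCC, a CACC-box motif of the kind bound by erythroid and other Krüppel-like factors, on either strand. Overlapping matches were counted separately.
Slc4a2 start 1: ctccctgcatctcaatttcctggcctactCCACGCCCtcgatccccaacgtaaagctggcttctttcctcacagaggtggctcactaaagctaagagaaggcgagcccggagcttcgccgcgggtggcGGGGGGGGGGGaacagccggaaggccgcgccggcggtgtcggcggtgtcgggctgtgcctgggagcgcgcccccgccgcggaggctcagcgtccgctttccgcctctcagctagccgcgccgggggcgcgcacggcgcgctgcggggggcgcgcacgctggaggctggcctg
Slc4a2 start 2: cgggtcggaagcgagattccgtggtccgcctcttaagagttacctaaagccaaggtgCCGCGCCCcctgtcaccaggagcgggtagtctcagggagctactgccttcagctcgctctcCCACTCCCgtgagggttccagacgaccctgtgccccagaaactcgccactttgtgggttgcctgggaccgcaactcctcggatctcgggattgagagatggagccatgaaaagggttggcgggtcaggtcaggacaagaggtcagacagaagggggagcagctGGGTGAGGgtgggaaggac
The window at start 1 had 72.0% G and C, with 1 CACC-box match on the given strand and 4 on the other strand, these 4 overlapping in 1 run of G. The window at start 2 had 61.3% G and C, with 2 matches on the given strand and 1 on the other. The letters AGATAA, which GATA factors bind, were in neither window on either strand. The TATA-box letters TATAAA were in neither window either. Among 32851 windows of the same length, 49.5% held CCNCNCCC, 11.2% AGATAA and 13.6% TATAAA on either strand. The windows thus share their motif content with much of the genome, and letters alone show no binding.

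Slc4a1 was among the genes highest above A/J in both strains. Its ratio ran from 0.735 to 1.45 with a median of 1.026 on the 8 AcB61 arrays. On 5 AcB55 arrays it was 0.845, 1.341, 1.647, 1.453 and 1.137, and AcB55 replicate 1 had no value for this probe. All 13 values lay above 0, and the ranges of the strains overlapped. Of all features, 6.52% were above 0 on every AcB61 array with a value and 10.6% on every AcB55 array with a value. Slc4a1 rose to a mean ratio of 1.07 ± 0.23 (SD, n = 8) in AcB61, a 2.11-fold excess over A/J (limma adjusted p = 4.1e-07). In AcB55 it rose to 1.28 ± 0.31 (SD, n = 5), a 2.44-fold excess over A/J (limma adjusted p = 4.11e-07). Ordered by mean ratio, Slc4a1 stood in place 6 of 13045 features from the top in AcB61 and in place 3 in AcB55. Were the ratios to run the other way, these places, and those given for Car1 and Slc4a2, would count from the bottom. The mean of AcB61 minus that of AcB55 was -0.21, with a 95% interval of -0.49 to 0.07 (limma adjusted p = 0.32). A difference in Slc4a1 between the strains therefore did not pass, and the interval allows AcB61 to lie up to 0.49 below AcB55. An exact sign-flip test on the arrays of 1 strain, two-sided, gave p = 0.00781 in AcB61, the smallest that 8 arrays allow. In AcB55 the exact test gave p = 0.0625, the smallest that 5 arrays allow, so it cannot pass there.

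Car1 was above A/J on all 14 arrays, with a lower mean than Slc4a1 in both strains. It ran from 0.418 to 1.142 with a median of 0.772 in AcB61, and from 0.325 to 0.893 with a median of 0.578 in AcB55. AcB61 replicate 3 was the highest array and AcB55 replicate 4 the lowest, and the strains overlapped over most of their range. Car1 rose to 0.77 ± 0.24 (SD, n = 8) in AcB61, 1.7-fold over A/J (limma adjusted p = 3.14e-06). It rose to 0.61 ± 0.25 (SD, n = 6) in AcB55, 1.52-fold over A/J (limma adjusted p = 9.27e-05). It stood in place 67 of 13045 features in AcB61 and in place 169 in AcB55. AcB61 minus AcB55 was 0.16, with a 95% interval of -0.09 to 0.41, and did not pass (limma adjusted p = 0.41).

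Slc4a2 was far above A/J in AcB55 and little above it in AcB61. The 8 AcB61 arrays gave -0.085, 0.547, 0.385, 0.114, 0.288, 0.561, 0.225 and 0.445, in the order of their replicate numbers. The 6 AcB55 arrays gave 1.39, 0.833, 0.748, 1.713, 1.309 and 1.339. No AcB61 array reached the lowest AcB55 array, so the ranges did not overlap, which held for 2.67% of all features tested, with AcB61 the lower strain in 1.56%. Slc4a2 averaged 0.31 ± 0.22 (SD, n = 8) in AcB61, 1.24-fold over A/J and above 0 on 7 of 8 arrays (limma adjusted p = 0.0181). That call was lost without AcB61 replicate 2, where the mean was 0.28 (limma adjusted p = 0.0516). In AcB55 it rose to 1.22 ± 0.37 (SD, n = 6), 2.33-fold over A/J (limma adjusted p = 4.65e-07), which is place 6 of 13045 features. In AcB61 it stood in place 624.

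The difference in Slc4a2 between the strains was tested directly. AcB61 minus AcB55 was -0.91 with a standard error of 0.14 and a 95% interval of -1.2 to -0.62, or 1.88-fold lower in AcB61 (limma adjusted p = 0.000939). Of all features, 12.3% were called between the strains, 5.29% higher and 6.98% lower in AcB61. An exact permutation of the strain labels over the 14 arrays, two-sided, gave p = 0.000333, the smallest it can give. Leaving out any 1 array kept the difference between -1.01 and -0.81. In titles grouped by their leading number, the AcB61 groups of 3 arrays averaged 0.35 and 0.41, and the AcB55 groups of 3 and 2 arrays averaged 1.1 and 1.32. What that number stands for is not given in the labels, and since each such group held 1 strain, it cannot be told apart from strain.

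**Figure D1:**
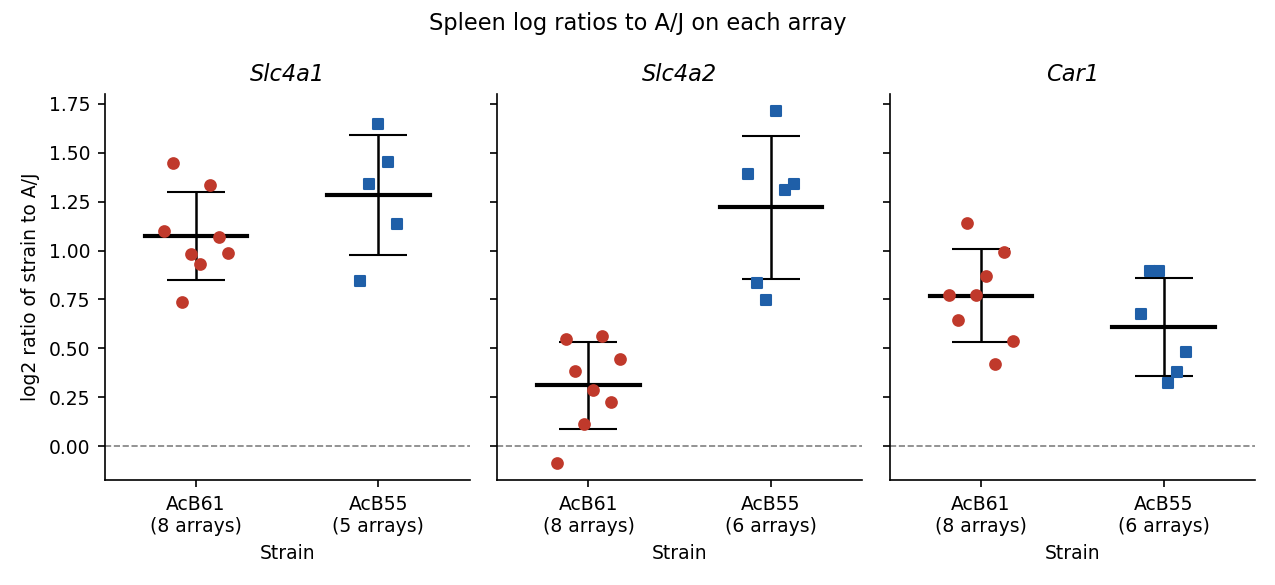
Log2 ratio of strain over A/J for Slc4a1, Slc4a2 and Car1, with 1 point per array, AcB61 left of AcB55, and the mean with its SD. The strains overlap for Slc4a1 and Car1, while all AcB61 points of Slc4a2 (highest 0.561) lie below all its AcB55 points (lowest 0.748).

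**Figure D2:**
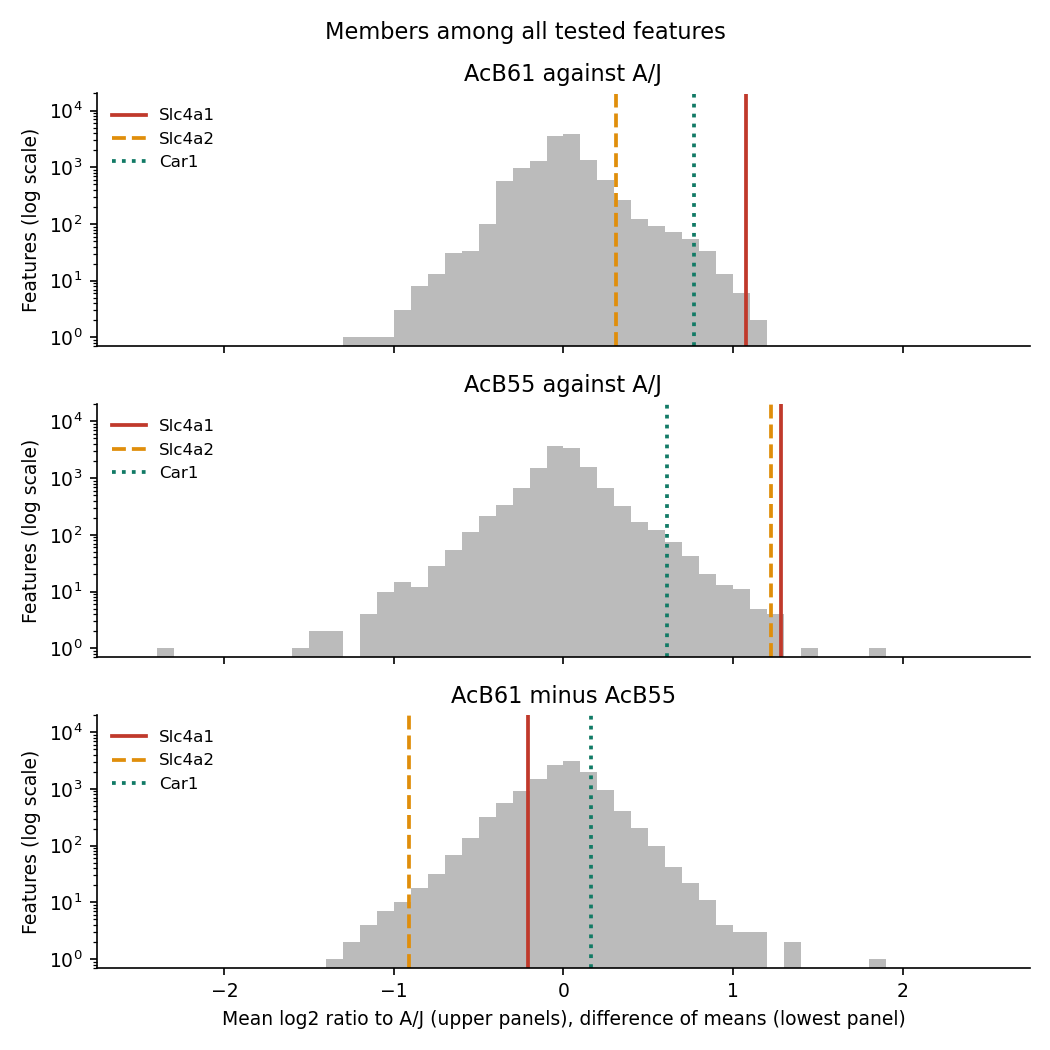
Distribution of mean log2 ratios over the 13045 features tested, in AcB61 over A/J, AcB55 over A/J and AcB61 minus AcB55, with the 3 genes marked. From the 5th to the 95th percentile all features run from -0.32 to 0.3 in AcB61, from -0.33 to 0.33 in AcB55 and from -0.39 to 0.33 in the difference, and Slc4a2 at 0.31 in AcB61 lies at the upper edge.

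Array by array, the 3 genes did not move as 1 block. In AcB61 the arrays with more Slc4a1 tended to have less Car1, without passing the test below 0.05: AcB61 replicate 6 had 1.337 for Slc4a1 and 0.418 for Car1, while AcB61 replicate 3 had 0.735 for Slc4a1 and 1.142 for Car1. Over the 8 AcB61 arrays Pearson's r between them was -0.69 (exact permutation p = 0.0544) and Spearman's rho -0.69 (exact permutation p = 0.0694), and without the 2 arrays farthest from the median of Slc4a1 r was -0.53. In AcB55, Slc4a2 and Car1 were likewise opposed over 6 arrays (r = -0.89, exact permutation p = 0.0222, rho = -0.71, exact permutation p = 0.136). Without the 2 arrays farthest from the median of Slc4a2, r was -0.45. Removing extremes narrows the range and leaves few arrays, so this cannot show whether the relation rests on those 2. Slc4a2 and Car1 in AcB61 gave r = -0.39 (exact permutation p = 0.34), and Slc4a1 and Slc4a2 in AcB61 gave r = 0.37 (exact permutation p = 0.374), which turned to -0.63 without the 2 arrays farthest from the median of Slc4a1. Relations of Slc4a1 with the other members and with list means were not tested in AcB55, since 5 arrays carry its value. Within the strains 14 relations were tested, among them those of each gene with the means of the erythroid and dividing cell lists. None passed after Benjamini-Hochberg adjustment over the 14. The opposition of Slc4a2 and Car1 in AcB55 had an adjusted exact permutation p of 0.311, and that of Slc4a1 and Car1 in AcB61 one of 0.381. Over the arrays of both strains, with strain means subtracted, r was -0.68 for Slc4a1 and Car1 (13 arrays). It was -0.65 for Slc4a2 and Car1 (14 arrays) and 0.53 for Slc4a1 and Slc4a2 (13 arrays). These pooled values were not tested.

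**Figure D3:**
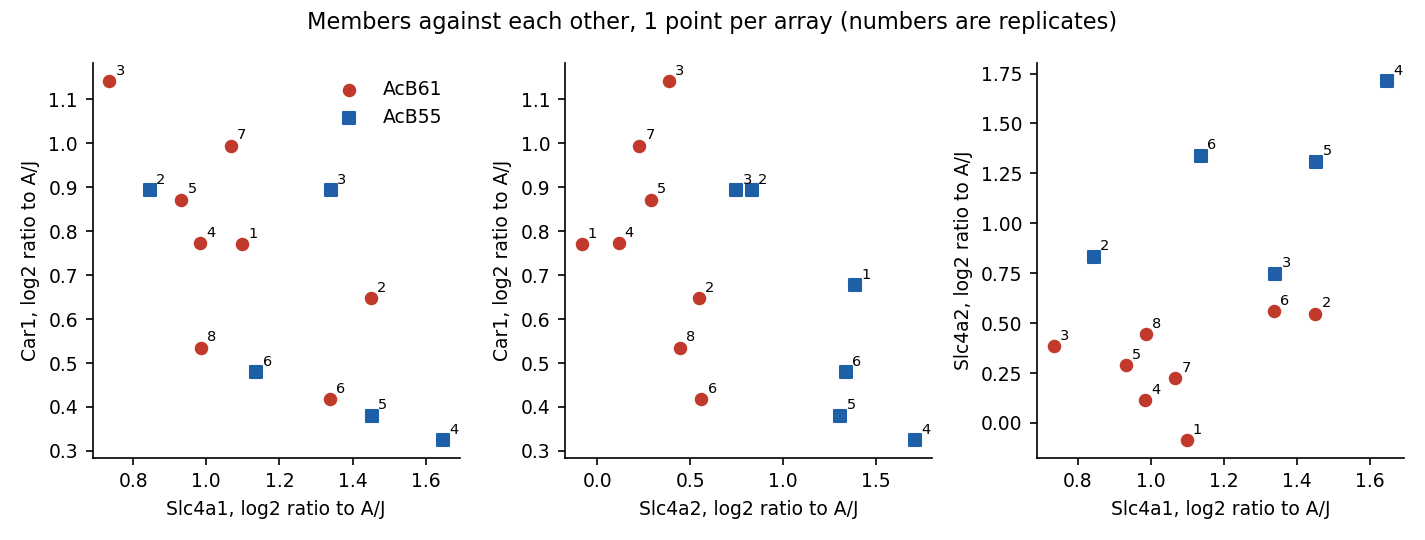
Each pair of the 3 genes plotted against each other, 1 point per array, log2 ratio to A/J on both axes, AcB61 and AcB55 in different markers. Car1 tends to be low where Slc4a1 (r = -0.69 in AcB61) or Slc4a2 (r = -0.89 in AcB55) is high, relations that did not pass after adjustment over the 14 tested.

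Of the 10 Slc4 genes listed, 4 were tested, and besides the members these were Slc4a3 and Slc4a8. In AcB61 2 of the 4 were called higher, Slc4a1 and Slc4a2, and in AcB55 3, the same 2 and Slc4a3. Over all features 10.5% were called higher in AcB61 and 9.77% in AcB55. The median ratios of the 4, 0.19 in AcB61 and 0.78 in AcB55, include the 2 members. Since these were chosen with earlier results known, the medians do not describe the family beyond them. Slc4a3, a further chloride-bicarbonate exchanger known mainly from heart and brain, averaged 0.08 ± 0.23 in AcB61 (SD, n = 8, limma adjusted p = 0.491) and rose to 0.34 ± 0.19 in AcB55 (SD, n = 6, limma adjusted p = 0.0046). Without AcB55 replicates 1 and 2 that call was lost (0.3, limma adjusted p = 0.0532), which leaves 2 of the family higher in AcB55. Its difference between the strains did not pass (-0.27, limma adjusted p = 0.111). Slc4a8, a sodium-driven exchanger of chloride and bicarbonate, averaged -0.03 in AcB61 and 0.01 in AcB55. From the separate Slc26 family of anion transporters only Slc26a10 was tested, at -0.03 in AcB61 and 0.09 in AcB55, and it did not pass.

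Among 16 carbonic anhydrase genes listed, 5 were tested, and in each strain the same 2, Car1 and Car8, were called higher. Over all features 10.5% were called higher in AcB61 and 9.77% in AcB55. Car1 was chosen with earlier results known, so its calls do not describe the family. Car8 encodes a carbonic anhydrase-related protein that lacks the enzyme's activity. It rose to 0.7 ± 0.38 in AcB61 (SD, n = 8, limma adjusted p = 0.00017), and to 0.36 ± 0.32 in AcB55 (SD, n = 6, limma adjusted p = 0.0463). The AcB55 call of Car8 was lost when any 1 of AcB55 replicates 1, 2, 5 and 6 or AcB61 replicates 1 and 4 was left out (limma adjusted p = 0.0563 to 0.165). Car4, which is anchored at the cell surface, averaged -0.03 in AcB61 and -0.06 in AcB55. Car7, a cytosolic enzyme, averaged 0.12 in AcB61 and 0.03 in AcB55, and the transmembrane Car12 averaged -0.03 in AcB61 and 0.002 in AcB55. No carbonic anhydrase was called between the strains.

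The membrane and skeleton proteins that accompany band 3 in the red cell were split. Of 32 listed, 12 were tested, and 4 were higher, 1 lower and 7 not called in AcB61, while 3 were higher, 2 lower and 7 not called in AcB55. Their median ratio was 0.07 in AcB61 and 0.11 in AcB55, against 1.07 and 1.28 for band 3 itself. Of all features, 10.5% were called higher and 13.3% lower in AcB61, and 9.77% higher and 10.9% lower in AcB55. Mpp1, the membrane palmitoylated protein p55 that joins glycophorin C to the skeleton, rose to 0.84 ± 0.28 in AcB61 (SD, n = 8, limma adjusted p = 3.1e-06) and to 0.53 ± 0.25 in AcB55 (SD, n = 6, limma adjusted p = 0.000747). Rhd, the Rh protein of the band 3 complex, rose to 0.83 ± 0.47 in AcB61 (SD, n = 8, limma adjusted p = 0.000121) and to 1.13 ± 0.31 in AcB55 (SD, n = 6, limma adjusted p = 2.21e-05). Bsg, or basigin, a surface glycoprotein that accompanies monocarboxylate transporters, rose to 0.72 ± 0.21 in AcB61 and to 0.46 ± 0.13 in AcB55. Tpm3, a tropomyosin of the short actin filaments, fell to -0.37 ± 0.11 in AcB61 and to -0.27 ± 0.14 in AcB55. Ermap, an erythroid membrane protein of the immunoglobulin family, averaged 0.01 ± 0.13 in AcB61 (limma adjusted p = 0.878) and fell to -0.24 ± 0.12 in AcB55 (limma adjusted p = 0.00572). That AcB55 call was lost without AcB55 replicates 1 and 2 together (-0.18, limma adjusted p = 0.07).

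Of 15 proteins listed that bind the cytosolic end of band 3 or act on its phosphorylation, 9 were tested. In AcB61 3 were higher, 1 lower and 5 not called, and in AcB55 2 were higher, 1 lower and 6 not called. These counts stand beside the same shares of all features. Pfkm, a phosphofructokinase subunit, rose to 0.34 in AcB61 (limma adjusted p = 0.000954) and to 0.25 in AcB55 (limma adjusted p = 0.0204), and the AcB55 call was lost without AcB55 replicate 1, 2 or 5 (limma adjusted p = 0.0512 to 0.0833). Gapdh, the glycolytic dehydrogenase that docks on band 3, rose to 0.23 ± 0.1 in AcB61 (limma adjusted p = 0.00218) and averaged 0.08 ± 0.15 in AcB55 (limma adjusted p = 0.407). Wnk1, a kinase that controls chloride cotransporters, averaged 0.15 in AcB61 (limma adjusted p = 0.0333, lost without any 1 of AcB61 replicates 1, 3, 4, 6 and 7) and rose to 0.38 ± 0.1 in AcB55 (limma adjusted p = 8.63e-05). Ptpn6, a tyrosine phosphatase of blood cells also known as SHP-1, fell to -0.55 ± 0.38 in AcB61 (limma adjusted p = 0.000641) and to -0.67 ± 0.21 in AcB55 (limma adjusted p = 0.000333).

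**Figure D4:**
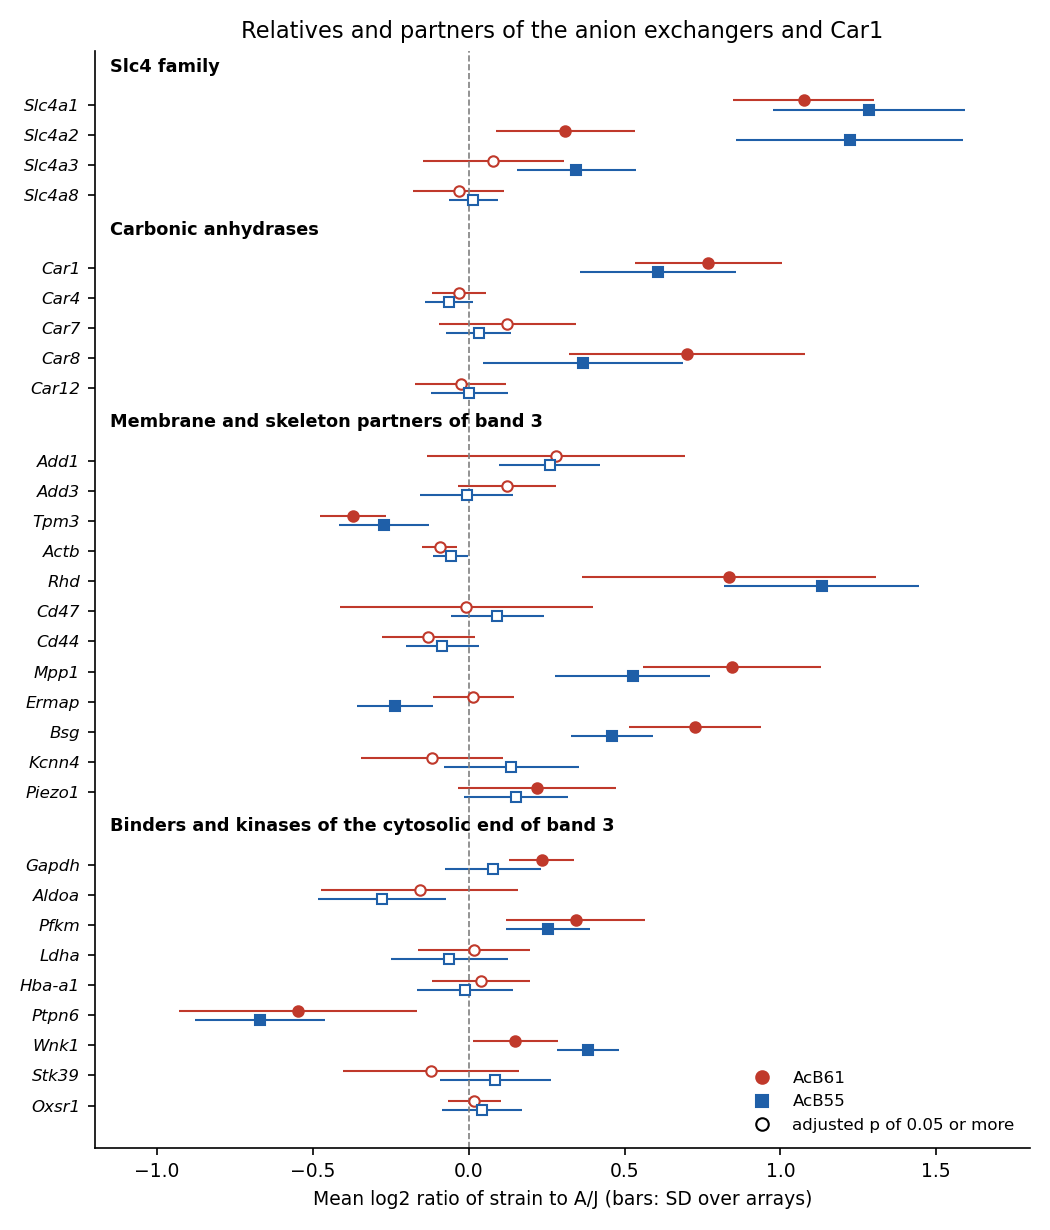
Mean log2 ratio to A/J, with its SD over arrays, for the tested Slc4 and carbonic anhydrase genes and the tested partners of band 3, AcB61 above AcB55 for each gene. Slc4a1 and Slc4a2 in AcB55 lie at 1.28 and 1.22, Rhd at 0.83 in AcB61 and 1.13 in AcB55, and most other partners lie near 0.

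Other carriers of acid, sodium, potassium and chloride showed smaller ratios in both directions. Of 24 listed, 13 were tested, and 2 were higher, 2 lower and 9 not called in AcB61, against 3 higher, 3 lower and 7 not called in AcB55. Of all features, 10.5% were called higher and 13.3% lower in AcB61, and 9.77% higher and 10.9% lower in AcB55. Whether these carriers differ from all features was not tested. Clic1, a chloride intracellular channel protein, fell to -0.29 in AcB61 (limma adjusted p = 0.00206) and to -0.64 in AcB55 (limma adjusted p = 5.31e-06). Clcn3, an endosomal chloride-proton exchanger, rose to 0.34 in AcB61 (limma adjusted p = 0.0027) and to 0.31 in AcB55 (n = 5, limma adjusted p = 0.0232), a call that was lost without AcB55 replicate 2, 4 or 5. Of the sodium pump's beta subunits, Atp1b3 fell to -0.4 in AcB55 (limma adjusted p = 0.000138) and averaged -0.12 in AcB61 (limma adjusted p = 0.104). Atp1b1 averaged -0.23 in AcB61 (limma adjusted p = 0.0446) and -0.29 in AcB55 (limma adjusted p = 0.0293). Its AcB61 call was lost on leaving out any 1 of 9 arrays, AcB61 replicates 1, 3, 4, 5 and 7 and AcB55 replicates 3, 4, 5 and 6, and its AcB55 call without AcB55 replicate 1, 2 or 3. Atp1b2 rose to 0.36 in AcB55 (limma adjusted p = 0.00198) and averaged 0.22 in AcB61 (limma adjusted p = 0.0188, lost without AcB61 replicate 3, 6 or 8). Clic4 averaged 0.08 in AcB61 (limma adjusted p = 0.3) and rose to 0.32 in AcB55 (limma adjusted p = 0.000451).

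Markers of the cells that a spleen holds also differed from A/J. For comparison, 10.5% of all features were called higher in AcB61 and 9.77% in AcB55. The lists were chosen with earlier results of these data known, so their counts are descriptive. Of 38 erythroid genes listed, 22 were tested, and 18 were called higher, none lower and 4 not called in each strain, with median ratios of 0.62 in AcB61 and 0.47 in AcB55. Without AcB55 replicates 1 and 2 the AcB55 count was 11. The mean over the tested erythroid genes ran from 0.447 to 0.723 on the AcB61 arrays and from 0.318 to 0.775 on the AcB55 arrays, and these ranges overlapped. Across AcB61 arrays, r with that mean was -0.18 for Slc4a1, 0.31 for Slc4a2 and 0.63 for Car1. Across AcB55 arrays it was 0.21 for Slc4a2 and 0.11 for Car1. None passed (exact permutation p = 0.0956 to 0.843). Alas2, the erythroid enzyme that begins haem synthesis, averaged 0.92 ± 0.23 in AcB61 and 0.41 ± 0.33 in AcB55, and Abcb10, a mitochondrial carrier of erythroid cells, 0.7 ± 0.09 in AcB61 and 0.85 ± 0.14 in AcB55. Hba-a1, an alpha globin of the same list, averaged 0.04 in AcB61 and -0.01 in AcB55 and was not called. Of 20 dividing cell genes listed, 18 were tested, and 17 were higher in AcB61 and 15 in AcB55, with array means of 0.439 to 0.834 in AcB61 and 0.52 to 0.864 in AcB55. The part of these cell changes in the ratios of Slc4a1, Slc4a2 and Car1 was not tested.

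The lists for other cells were thinner. Of all features, 13.3% were called lower than A/J in AcB61 and 10.9% in AcB55, and 10.5% and 9.77% were called higher. Of 10 granulocyte genes listed 5 were tested, and their mean was 0.245 to 0.542 on the AcB61 arrays, while on AcB55 arrays it was 1.04 and 1.201 on AcB55 replicates 1 and 2 and 0.01 to 0.155 on the other 4. Without those 2 arrays the AcB55 means were 1.39 for Slc4a1 (limma adjusted p = 9.25e-07), 1.28 for Slc4a2 (limma adjusted p = 1.07e-05) and 0.52 for Car1 (limma adjusted p = 0.00413). Of 16 macrophage genes listed 8 were tested, and 1 was higher and 3 lower in AcB61, 1 higher and 5 lower in AcB55 (3 lower there without AcB55 replicate 6, or without AcB55 replicates 1 and 2). Of 10 stroma and vessel genes listed 7 were tested, and 1 was higher and 5 lower in AcB61, and 6 lower in AcB55 (2 without AcB55 replicates 1 and 2). Among 8 platelet genes listed 2 were tested, both lower in AcB61 and not called in AcB55. The B cell adaptor Blnk fell to -0.58 in AcB61 (n = 6) and to -1.06 in AcB55, Satb1 of the T cell list averaged -0.03 in AcB61 and -0.18 in AcB55, and the pancreatic Cpa1 averaged -0.27 in AcB61 and -1.42 in AcB55, with no call unless AcB55 replicate 1 was left out, when it was called lower in AcB55.

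Genes whose array-to-array pattern was most like that of each member were found after subtracting the strain means, so that only variation among arrays of a strain counted. For Slc4a2 the nearest of 5796 genes over 14 arrays was Mki67, a nuclear protein of dividing cells (r = 0.92), ahead of Eif4a1, a translation initiation helicase (r = 0.87), Gramd4 (r = 0.82), Ccdc122 (r = 0.82) and Cntrob (r = 0.79). Within the strains r for Mki67 was 0.88 in AcB61 and 0.95 in AcB55, and r for Cntrob 0.37 in AcB61 and 0.96 in AcB55. Mki67 did not stand for its list here. With the mean of the dividing cell genes, r of Slc4a2 was 0.43 in AcB61 (exact permutation p = 0.29) and -0.09 in AcB55 (exact permutation p = 0.835). Slc4a2 was also high on the AcB61 arrays where the SD over all features was large (r = 0.8 over 8 arrays, and 0.35 over the 6 AcB55 arrays), and the part of that spread in these likenesses was not tested. Mki67 ran from 0.491 on AcB61 replicate 1, which was also the lowest array for Slc4a2, to 1.054 in AcB61, and from 1.496 to 2.197 in AcB55, highest on AcB55 replicate 4 as was Slc4a2. It averaged 0.82 ± 0.2 in AcB61 and 1.83 ± 0.25 in AcB55 (SD, n = 8 and 6), a difference of -1.01 between the strains (limma adjusted p = 4.33e-05). Of the 18 dividing cell genes tested, 2 were called lower in AcB61 than in AcB55 (4 without AcB61 replicate 8), namely Mki67 and Mcm3. The share of all features called lower in AcB61 than in AcB55 was 6.98%. The median difference of the 18 between the strains was -0.015. Mcm3, a subunit of the replication helicase, averaged 0.42 in AcB61 and 0.83 in AcB55. Its call between the strains was lost without AcB55 replicates 1 and 2 together (-0.32, limma adjusted p = 0.0681).

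For Car1 the nearest gene over 14 arrays was Cks2, a small subunit of cyclin-dependent kinases (r = 0.97), followed by Cdk2ap1 (r = 0.94), Ap3m1 (r = 0.93), Phf7 (r = 0.92) and Rhot1 (r = 0.91). Cks2 averaged 0.73 ± 0.27 in AcB61 and 0.62 ± 0.21 in AcB55 (SD, n = 8 and 6). Its lowest array was AcB61 replicate 6 at 0.299 and its highest AcB61 replicate 3 at 1.083, which were also the lowest and highest AcB61 arrays of Car1. For Slc4a1, over the 13 arrays with a value, the nearest of 5797 genes were Zcchc10 (r = 0.89), Rapgef5 (r = 0.88), Gga1 (r = 0.87), Lsm14b (r = 0.86) and Tax1bp1 (r = 0.83). Of those 5, Tax1bp1 was the one called in a comparison, at 0.49 in AcB55 (limma adjusted p = 0.000216). These correlations are the highest among all genes compared, the arrays share labelling and hybridisation, and they describe likeness on these arrays alone. Mki67 and Cks2 were picked for that likeness, so the extreme arrays they share with Slc4a2 and Car1 add nothing to it.

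Most genes next to the members on the chromosome had ratios near 0. Among the 5 nearest tested genes on each side of Slc4a2, mean ratios ran from -0.25 to 0.11 in AcB61 and from -0.19 to 0.16 in AcB55, and none was called between the strains. Against A/J, 2700038G22Rik fell to -0.25 in AcB61 (limma adjusted p = 0.00907), and Klhl7 averaged 0.16 in AcB55 (limma adjusted p = 0.0391), a call lost without any 1 of AcB55 replicates 1, 2, 5 and 6 or AcB61 replicate 4. Its nearest tested neighbours on the array, Cdk5, a kinase of neurons, and Fastk, a mitochondrial RNA-binding protein, averaged -0.1 and 0.06 in AcB61 and 0.08 and -0.11 in AcB55. Beside Slc4a1, Slc25a39, a mitochondrial carrier of the erythroid list, rose to 0.8 in AcB61 (limma adjusted p = 1.15e-05) and averaged 0.4 in AcB55 (limma adjusted p = 0.0114, lost without AcB55 replicate 1 or 2). G6pc3, a glucose-6-phosphatase, fell to -0.26 in AcB55, and Tmub2 averaged 0.2 in AcB55, a call lost without AcB55 replicate 2. Beside Car1, Tpd52, named for tumours in which it was found, fell to -0.22 in AcB61 and to -0.57 in AcB55, Pde7a, a phosphodiesterase, fell to -0.44 in AcB55, and Armc1 rose to 0.35 in AcB55 and averaged 0.18 in AcB61, where its call was lost without any 1 of AcB61 replicates 1, 3, 5, 7 and 8.

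**Figure D5:**
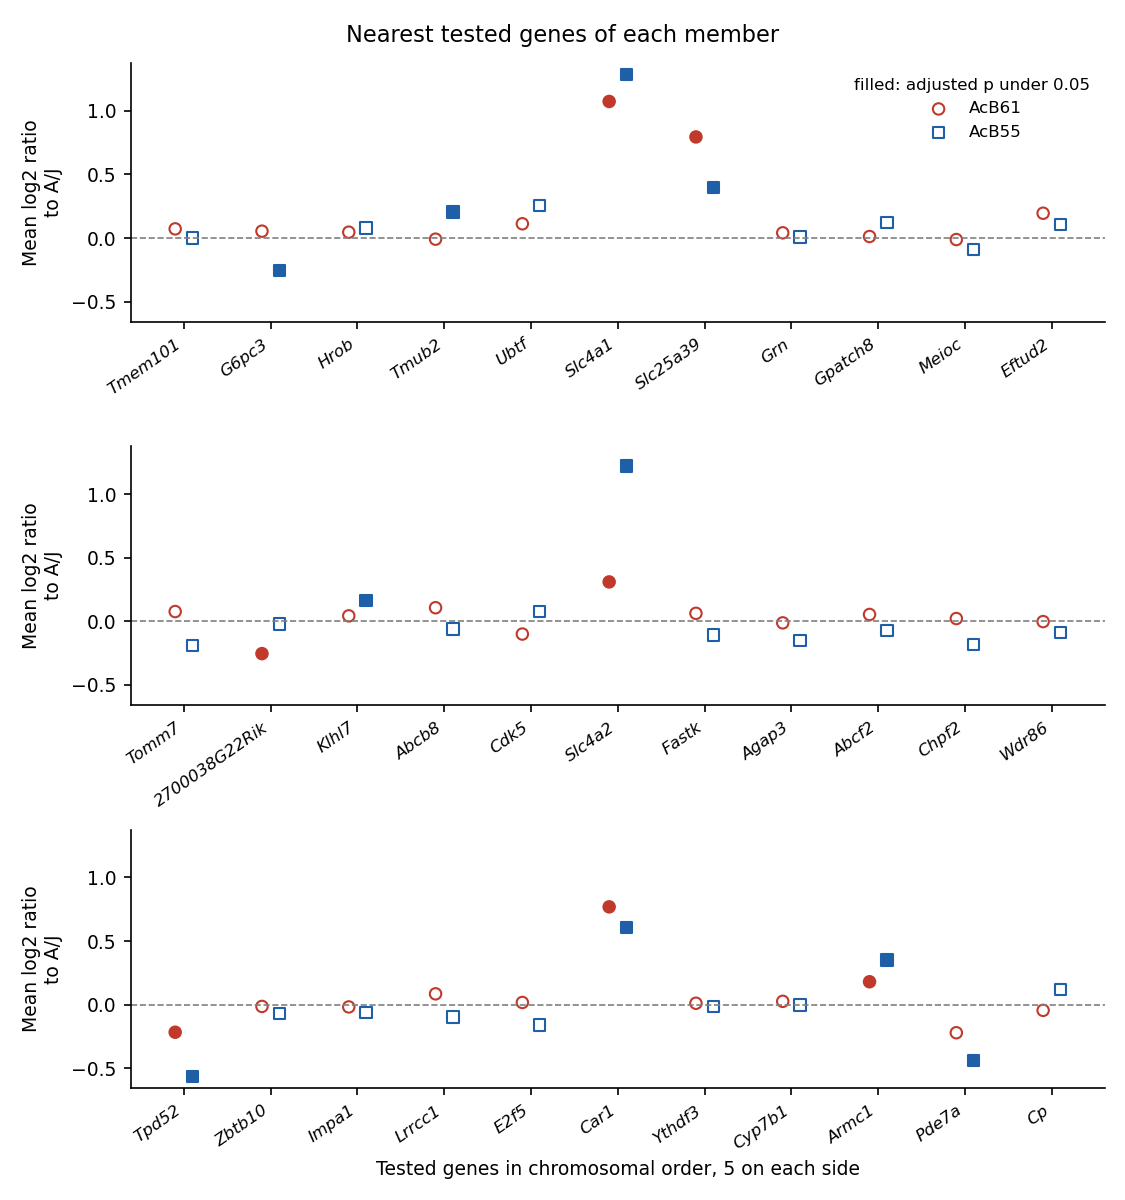
Mean log2 ratio to A/J for each member and its 10 nearest tested genes, in chromosome order and without coordinates, with AcB61 and AcB55 in different colours. Slc4a2 at 1.22 in AcB55 stands among neighbours between -0.19 and 0.16, and Slc4a1 has 1 raised neighbour in AcB61, Slc25a39 at 0.8.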

How the data were processed

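Spleen RNA of AcB61 (8 arrays) and AcB55 (6 arrays) was hybridised with A/J spleen RNA on cDNA arrays. Per the labels, images from a ScanArray scanner were quantified with QuantArray and imported into GeneSpring. Their text stops short of the normalization, and the sources used here give neither it, the dye of each channel nor the log base. The deposited values were read as log2 ratios of strain over A/J, since they are positive and negative decimals centred near 0. Another base would rescale all values and leave tests against 0 as they are.

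Gene names came from GEO's platform annotation. Of the features with a value, 7849 had 1 symbol, 356 several and 6407 none, and 635 listed features had no value on any array. Probes of 1 gene were averaged on each array, and a feature needed values on at least 3 arrays of each strain. A mean per strain was fitted with limma 3.58.1 (R 4.3.3; lmFit, eBayes) over all 14 arrays, with Benjamini-Hochberg adjustment at 0.05. Named genes were the members, the genes of each list (all when at most 6 were tested, otherwise the 4 called ones with the largest mean in each strain and those called between strains), the 5 genes nearest each member by within-strain correlation, and called neighbours among 5 tested genes on each side. The script was tested on simulated data. Members and lists were chosen with earlier results of these data known, and the relations with list means were added after values were seen. Alternatives were each probe alone, median centring, quantile normalization, 2 filters, a trended robust variance, each strain alone, the leading title number as a random block, and arrays left out.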

Additional observations from a re-analysis of the deposited data

Results flagged for a closer look

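Between the strains, Slc4a2 was lower in AcB61 than in AcB55 (-0.91), a direct test that passed under every setting in which it was run. Between the strains 12.3% of all features were called. On the lists, 1 of 4 tested Slc4 genes, 1 of 12 membrane partners and 1 of 9 binders of band 3's cytosolic end were called. Of 13 other carriers, 2 were higher and 1 lower in AcB61, and no carbonic anhydrase passed. Among the transport and band 3 genes, AcB61 minus AcB55 also passed for Ermap (0.25), Wnk1 (-0.23), Clic1 (0.35), Atp1b3 (0.27) and Clic4 (-0.25). These differences were small, and each call except that of Slc4a2 was lost on leaving out single arrays: 9 of the 14 for Ermap, 12 for Wnk1, 10 for Clic4 and 7 for Atp1b3, and AcB55 replicate 5 or 6 for Clic1.

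Of 22 erythroid genes tested, 4 were higher and 2 lower in AcB61 than in AcB55, against 5.29% and 6.98% of all features. The higher ones were Alas2 (0.51), Hbb-y (0.85), an embryonic globin, Glrx5 (0.45) and Tmem14c (0.39). Bcl2l1 (-0.76), a survival protein, and Cat (-0.48), or catalase, were lower. Leaving out AcB55 replicate 4 ended the calls of Alas2, Glrx5, Bcl2l1, Cat and Tmem14c, as did AcB55 replicate 6 for Alas2, 7 further single arrays for Glrx5, 9 for Cat and 8 for Tmem14c, while Hbb-y passed without any 1 array. Among other markers and named genes the difference was 0.49 for Blnk, -0.47 for Cd177, 0.57 for Col3a1, -1.01 for Mki67, -0.41 for Mcm3, -0.39 for Tax1bp1, 0.31 for G6pc3 and 0.35 for Tpd52. The call of Blnk was lost without AcB55 replicate 5 or 6 or AcB61 replicate 1, that of Tax1bp1 without AcB55 replicate 4 or 5, and that of Cd177 without AcB55 replicate 2. That of Mcm3 was lost without AcB55 replicates 1 and 2 together.

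A single array stood apart from the rest of its strain for 6 of the 170 gene and strain combinations examined, meaning that its gap to the nearest array, divided by the range of the strain, exceeded Dixon's 95% critical value. By that test's own level, chance flags about 1 in 20 groups. Ermap was -0.48 on AcB55 replicate 1, Cat 0.599 on AcB55 replicate 5, Satb1 0.219 on AcB61 replicate 3, Col3a1 0.599 on AcB61 replicate 1, G6pc3 0.294 on AcB61 replicate 2 and Slc25a39 1.21 on AcB61 replicate 3. No array stood apart in this way for Slc4a1, Slc4a2 or Car1.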

How the results depend on the processing

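For the 3 genes, 1 call against A/J changed: that of Slc4a2 in AcB61, lost without AcB61 replicate 2. Leaving out 1 array at a time, Slc4a1 ranged over 1.02 to 1.12 in AcB61, 1.19 to 1.39 in AcB55 and -0.32 to -0.12 in the difference, Slc4a2 over 0.27 to 0.37, 1.12 to 1.32 and -1.01 to -0.81, and Car1 over 0.72 to 0.82, 0.55 to 0.66 and 0.1 to 0.22. With the exact test Slc4a1 in AcB55 (1.28) did not pass, since 5 arrays cannot. Between members, Slc4a2 and Car1 in AcB55 gave rho of -0.714, and r of -0.452 without 2 arrays, and Slc4a1 and Slc4a2 in AcB61 turned to -0.625. Calls over all features ranged over 2695 to 3096 in AcB61 and 2064 to 2774 in AcB55, and between the strains over 854 to 1694 when 1 array was left out, with 924 without AcB55 replicate 5 and 854 without AcB55 replicate 6, against 1601 with all. The last count was 2602 with the title number as a random block and 705 without the AcB55 arrays whose titles end in b. The cause was not tested. Uncalled means near 0 changed sign when 1 array was left out: Slc4a8 ranged over -0.0681 to 0.000317 in AcB61 and -0.00335 to 0.0394 in AcB55, Car12 over -0.0564 to 0.00142, -0.0283 to 0.0371 and, between strains, -0.0636 to 0.00177, Ermap in AcB61 over -0.0154 to 0.039 and Bcl2l1 in AcB61 over -0.0416 to 0.165. Without the b arrays Slc4a8 was -0.0105 in AcB55 and Car12 -0.0384 in AcB55 and 0.0119 between strains, and without AcB55 replicates 1 and 2 Hbb-y was -0.0307 in AcB55. No paired analysis was possible because the labels number no replicates and each array already holds its own A/J channel. The number of arrays and the unknown spot strength limit precision. A lone probe gave no separate value where genes have several.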
